A study of Homo sapiens with 6 samples.

Results

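The genes described here are 10 transcriptional targets and feedback inhibitors of ERK signalling: the early response genes EGR1 and IER3, the phosphatases DUSP1, DUSP4, DUSP5 and DUSP6, the Sprouty genes SPRY2 and SPRY4, and the ETS factors ETV4 and ETV5. Every probe set annotated to exactly 1 of these symbols was taken, which gave 22 probe sets for 10 of the 14884 named genes, out of 53617 probe sets in all. The genes were grouped by their known place downstream of ERK, with the measured differences between the 2 conditions in view. Their differences and calls are therefore given as a description of these arrays, without p-values of their own, and support no statement about the group.

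Expression was measured in BE(2)-C_tetoff_KDM4C cells, a derivative of the human neuroblastoma line BE(2)-C with a tet-off construct that encodes KDM4C, an enzyme that removes methyl groups from lysine 9 of histone H3. With tet-off control the construct is silent while doxycycline is present and is expressed once it is absent. The groups were 3 samples without doxycycline (construct on) and 3 samples with doxycycline (construct off), each at 6 days. All 6 samples carried the construct and were grown in DME/F-12 medium with 10% dialyzed fetal bovine serum, and each was measured on its own Affymetrix whole-transcript array. No sample without the construct was analysed here, so KDM4C induction and doxycycline withdrawal cannot be told apart. The labels do not say whether the derivative is a single clone. In bulk RNA, fewer expressing cells and less RNA per cell cannot be told apart.

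ERK is the last kinase of the RAS, RAF and MEK cascade that growth factor receptors switch on. It phosphorylates ternary complex factors, which act with SRF to start transcription of early genes such as EGR1, and it raises the amounts of its own inhibitors. Among these, DUSP6 and DUSP5 dephosphorylate ERK itself, DUSP1 and DUSP4 act on ERK and on the stress kinases JNK and p38, and the Sprouty proteins act upstream, between the receptor and RAF. ETV4 and ETV5 are ETS transcription factors of the PEA3 group, whose transcripts follow ERK activity in many tissues. In neuroblastoma the cascade can be driven by the receptor tyrosine kinase ALK. No array measured ERK phosphorylation, so the label of the group rests on what is known of the genes.

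Of the 10 genes, EGR1, DUSP1, DUSP6, SPRY2 and SPRY4 had an entry in the RefSeq promoter table (GRCh38.p14, 250 bases before and 50 after the start of the gene). The promoters of the 4 genes whose main probe set was called higher without doxycycline are shown, picked for that call. They are written 5′ to 3′ on the strand of the gene, and capitals mark CArG boxes (the binding motif of SRF), TGACG (the core of the cAMP response element) and CCGGAA (a core of ETS sites), on either strand. EGR1 is at chr5:138465229-138465528 on the plus strand. DUSP1 is at chr5:172771146-172771445 on the minus strand. DUSP6 is at chr12:89352452-89352751 on the minus strand. SPRY2, which has 3 starts in the table, is shown for the start farthest upstream, at chr13:80341077-80341376 on the minus strand.
EGR1: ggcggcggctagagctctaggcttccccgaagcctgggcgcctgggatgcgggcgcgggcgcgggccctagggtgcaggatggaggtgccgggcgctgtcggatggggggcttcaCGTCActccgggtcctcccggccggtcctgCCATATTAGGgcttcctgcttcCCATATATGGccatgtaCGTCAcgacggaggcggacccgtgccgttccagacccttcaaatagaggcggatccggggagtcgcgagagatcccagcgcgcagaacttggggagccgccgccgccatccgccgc
DUSP1: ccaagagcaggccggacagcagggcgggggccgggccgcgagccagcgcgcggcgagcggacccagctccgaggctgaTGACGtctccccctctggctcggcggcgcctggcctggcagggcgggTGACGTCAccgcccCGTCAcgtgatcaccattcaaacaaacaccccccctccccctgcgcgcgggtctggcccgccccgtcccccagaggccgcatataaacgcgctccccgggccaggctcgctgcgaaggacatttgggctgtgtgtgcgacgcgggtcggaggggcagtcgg
DUSP6: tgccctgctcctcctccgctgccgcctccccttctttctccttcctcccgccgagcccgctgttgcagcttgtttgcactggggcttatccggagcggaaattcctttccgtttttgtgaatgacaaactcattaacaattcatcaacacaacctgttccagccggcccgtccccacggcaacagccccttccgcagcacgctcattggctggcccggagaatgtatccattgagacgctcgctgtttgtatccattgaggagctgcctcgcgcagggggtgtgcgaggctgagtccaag
SPRY2: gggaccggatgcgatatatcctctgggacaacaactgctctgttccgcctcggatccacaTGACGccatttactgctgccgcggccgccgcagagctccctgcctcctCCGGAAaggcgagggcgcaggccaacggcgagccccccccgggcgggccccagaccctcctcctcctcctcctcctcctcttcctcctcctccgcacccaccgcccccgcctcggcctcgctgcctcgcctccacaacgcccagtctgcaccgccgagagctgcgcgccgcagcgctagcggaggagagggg

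The EGR1 promoter held 2 CArG boxes, with first bases 105 and 83 bases upstream of the start. Of 35116 RefSeq promoters of this length, 1.29% held such a box, and none was found in the windows of the other members in the table. TGACG was found in EGR1, DUSP1, SPRY2 and SPRY4 and in 24.6% of all promoters. DUSP1 had 4 matches to it, of which a pair overlaps in a full TGACGTCA 125 bases upstream, a motif present in 1.85% of promoters. CCGGAA was found 142 bases upstream in SPRY2 and in 17.2% of promoters. The DUSP6 window held none of the 8 motifs searched, which also included TGANTCA for AP-1 (found in 7.71% of promoters), GGGCGG for SP1 (45.0%), GCGNGGGCG for EGR factors (9.43%) and TATAAA for the TATA box (11.5%). The windows shown for EGR1, DUSP1 and SPRY2 were rich in G and C, at 69.3%, 73.3% and 71.0%, against 58.3% for DUSP6. At the other SPRY2 starts G and C made up 63% and 44.7%, and neither TGACG nor CCGGAA was found there.

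Values below are log2 expression values as deposited, differences are no doxycycline minus doxycycline, and errors are given as SE (standard error, from limma's moderated fit) or as SD (standard deviation, n = 3 arrays). A probe set counted as called at a limma adjusted p below 0.05, by the method of Benjamini and Hochberg over all 53617. The probe set with the highest mean over the 6 arrays stood for its gene. KDM4C was at 9.03 ± 0.05 without and 7.76 ± 0.05 with doxycycline (SD, n = 3 each), in the direction of the labels. The 9 named markers of noradrenergic neuroblastoma all lay above the median probe set, and 0 were called (limma; unadjusted p below 0.05 for 2 on each side). Among these CHGB and CHGA were at -0.34 and -0.40, and TH and DBH at 0.34 and 0.28, each with separate groups. Their part in the results below was not tested. Of 20 named markers of other cell types, 8 lay above the median probe set. LUM, listed as a mesenchymal marker and named after its values were seen, was bright. It was at 11.06 ± 0.04 without and 11.36 ± 0.04 with doxycycline (SD, n = 3 each), with separate groups. None of these 20 was called (limma; unadjusted p below 0.05 for 2 that were higher and 1 that was lower), and their mean level per array ran from 4.46 to 4.54 without and from 4.44 to 4.49 with doxycycline.

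Without doxycycline, transcripts of EGR1, of the phosphatases DUSP6 and DUSP1 and of the inhibitor SPRY2 were 2.03-, 1.64-, 1.48- and 1.52-fold higher. SPRY4, IER3 and ETV5 were 1.44-, 1.34- and 1.24-fold higher in the same direction without being called, and DUSP4, ETV4 and DUSP5 differed little. Thus 4 of the 10 genes were called higher and 0 lower. Among all 14884 genes, 0.43% were called higher and 0.134% lower. Of the 22 probe sets 5 were called higher and 0 lower, where 0.248% and 0.0933% of all probe sets were. The 22 held only 15 different sets of values, since most of the 11 IER3 probe sets repeat each other. In 7 of the 10, every array without doxycycline lay above every array with it, as was the case for 12.1% of all genes. The median difference was 0.47 over the 10 genes and 0.00 over all genes, and 9 of the 10, all but DUSP5, lay above the median probe set. These shares belong to genes that were grouped with the same contrast in view. With any 1 of the 6 arrays left out, 0 of the 10 were called, and 0 to 15 of all probe sets.

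**Figure D1:**
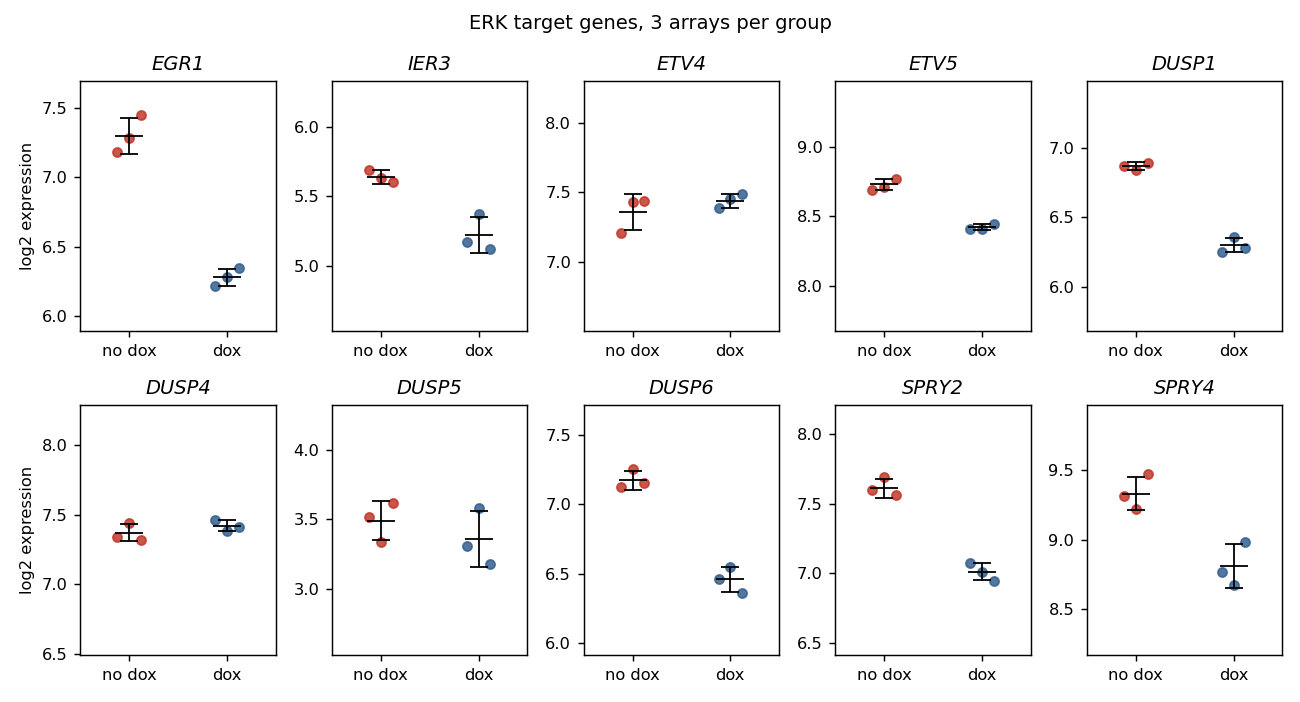
Log2 expression of the 10 ERK target genes (vertical axis, the same span of 1.8 in each panel) on 3 arrays without doxycycline (red, left) and 3 with it (blue, right), with mean and SD in black. The groups are apart in EGR1, IER3, ETV5, DUSP1, DUSP6, SPRY2 and SPRY4 and overlap in ETV4, DUSP4 and DUSP5.

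EGR1 encodes a zinc finger transcription factor that is induced within minutes of growth factor stimulation. Its level was 7.18, 7.28 and 7.45 in the 3 samples without doxycycline, against 6.22, 6.28 and 6.35 in those with it. The lowest array without doxycycline lay 0.84 above the highest with it. The difference of 1.02 (SE 0.09, 95% confidence interval 0.81 to 1.23) was the largest of the 10 and exceeded that of 99.8% of all named genes. With any 1 array left out it lay between 0.95 and 1.08.

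A second, dimmer EGR1 probe set was at 5.55, 5.09 and 5.05 without doxycycline, against 4.57, 4.81 and 5.02 with it. Its groups were only 0.03 apart, and the difference was 0.43 (SE 0.17), not called. The table gives no strand for a probe set. The 20 neighbours of the second probe set were taken by number, on both sides, among other genes with an unambiguous strand in the RefSeq promoter table. Of these, 19 belong to genes on the minus strand of chromosome 5, while EGR1 is on the plus strand. The genes of 19 of the 20 neighbours of the main EGR1 probe set are also on the plus strand. Which strand the second probe set reads was not tested. When the 2 were averaged, the EGR1 difference was 0.73.

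IER3, an early response gene that modulates ERK signalling and cell survival, had 11 probe sets that held only 4 different sets of values. The brightest was at 5.69, 5.63 and 5.60 without doxycycline, against 5.17, 5.37 and 5.12 with it. All 3 values without doxycycline were higher, and the difference was 0.42 (SE 0.08), not called. A group of 4 identical probe sets differed by 0.60 (SE 0.08) and a group of 5 identical ones by 0.20 (SE 0.06), neither called. A single probe set was called, at 5.29, 5.29 and 5.26 without doxycycline, against 4.79, 4.74 and 4.83 with it (difference 0.49, SE 0.06). The 11 are therefore not independent measurements, and a count over them would weigh IER3 several times. The 5 identical ones lie among probe sets of plus-strand genes of chromosome 6 by number and the 6 others among minus-strand ones. The RefSeq gene table also lists IER3-AS1, an antisense gene that overlaps IER3, and without the strand of a probe set their transcripts cannot be told apart.

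**Figure D2:**
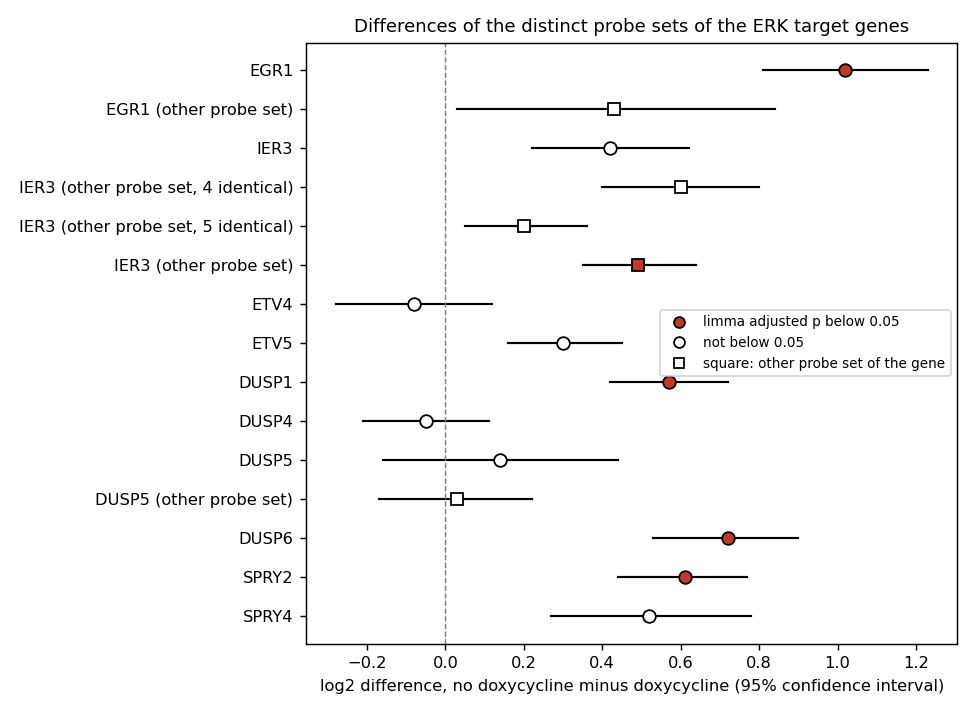
Log2 difference, no doxycycline minus doxycycline, of the 15 distinct value patterns among the 22 probe sets, with 95% confidence intervals. Circles stand for the gene, squares are its other probe sets, and filled symbols were called. The EGR1, DUSP6, SPRY2 and DUSP1 circles and an IER3 square are filled, and the intervals of ETV4, DUSP4 and DUSP5 span 0.

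Of the 4 dual-specificity phosphatases, DUSP6 and DUSP1 were called higher and DUSP4 and DUSP5 were not called. DUSP6, the cytoplasmic phosphatase specific for ERK, was at 7.12, 7.25 and 7.15 without doxycycline, against 6.46, 6.55 and 6.36 with it. The groups were 0.57 apart and the difference was 0.72 (SE 0.08, 95% confidence interval 0.53 to 0.90), the second largest of the 10. DUSP1, a nuclear phosphatase that is itself an early response gene, was at 6.87, 6.84 and 6.89 without doxycycline, against 6.25, 6.36 and 6.28 with it. Its replicates lay close together, with an SD of 0.03 without and 0.05 with doxycycline, and the difference was 0.57 (SE 0.06, 95% confidence interval 0.42 to 0.72).

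DUSP4, a nuclear phosphatase related to DUSP1, was at 7.34, 7.44 and 7.32 without doxycycline, against 7.46, 7.38 and 7.41 with it. The groups overlapped, and the 95% confidence interval of the difference of -0.05 ran from -0.21 to 0.11, which leaves out the differences measured for DUSP1 and DUSP6. DUSP5, the nuclear phosphatase specific for ERK, was dim, at 3.52, 3.34 and 3.62 without doxycycline, against 3.31, 3.58 and 3.18 with it. These values lie below the median probe set (3.94), and the 95% confidence interval of the difference of 0.14 ran from -0.16 to 0.44. A difference of that size could be missed at such a level, and background signals were not used here. The second DUSP5 probe set was dimmer still, with means of 2.63 without and 2.60 with doxycycline. Of its 20 neighbours by number, taken as for EGR1, 19 belong to genes on the minus strand of chromosome 10. For the brighter one 19 of 20 are on the plus strand. Which strand each reads was not tested.

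Both Sprouty genes, whose products dampen signalling from receptor tyrosine kinases, were higher in every sample without doxycycline. SPRY2 was at 7.60, 7.69 and 7.56 without doxycycline, against 7.07, 7.01 and 6.94 with it. The groups were 0.49 apart and the difference was 0.61 (SE 0.07, 95% confidence interval 0.44 to 0.77), which was called. SPRY4 was at 9.31, 9.22 and 9.47 without doxycycline, against 8.77, 8.67 and 8.98 with it. Its difference of 0.52 was close to that of SPRY2, but its replicates spread more (SD 0.12 without and 0.16 with doxycycline), and with an SE of 0.11 it was not called. Its 95% confidence interval, 0.27 to 0.78, covers the values of SPRY2, DUSP1 and DUSP6.

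Of the 2 PEA3-group factors, ETV5 had separate groups and ETV4 did not. ETV5 was at 8.69, 8.71 and 8.77 without doxycycline, against 8.41, 8.41 and 8.44 with it. The difference was small, at 0.30 (SE 0.06, 95% confidence interval 0.16 to 0.45), and the groups were 0.25 apart, with an SD of 0.04 without and 0.02 with doxycycline. It was not called. ETV4 was at 7.21, 7.43 and 7.44 without doxycycline, against 7.39, 7.45 and 7.49 with it. The groups overlapped, with a difference of -0.08 (95% confidence interval -0.28 to 0.12), so that its interval and that of ETV5 do not meet. ETV1, the remaining member of the group and not among the 10, had a difference of 0.38 (SE 0.08, limma adjusted p = 0.127), with all 3 arrays without doxycycline higher. It is named here after its values were seen.

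**Figure D3:**
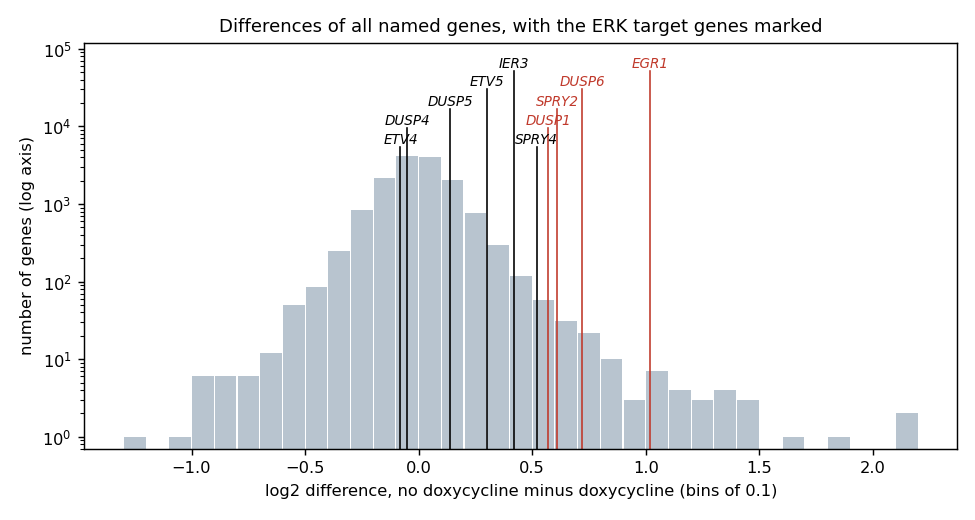
Number of named genes (vertical log axis) by log2 difference, no doxycycline minus doxycycline, in bins of 0.1, with lines at the ERK target genes, red where called. EGR1, DUSP6, SPRY2, DUSP1 and SPRY4 lie above 99% of the 14884 genes, and ETV4 and DUSP4 lie near the middle of the distribution.

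Across arrays, the 10 genes fell into a set with separate groups and a set without. In the 3 samples without doxycycline 8, 9 and 9 of the 10 genes lay above their own mean over the 6 arrays, against 1, 2 and 2 in the samples with doxycycline. The mean deviation of the 10 ran from 0.17 to 0.25 without and from -0.23 to -0.17 with doxycycline, with every array on the side of its group. These counts and means restate the differences above, in genes grouped with the same contrast in view. They give no separate support. Likeness between genes was measured as the root mean square, over the 6 arrays, of the difference between their deviations from their own means. By this measure DUSP6 and SPRY2 (0.0737) and DUSP1 and SPRY2 (0.0752) were the most alike pairs, and EGR1 and ETV4 (0.553) the least. Within the groups the genes did not order the replicates alike. EGR1 and SPRY4 were highest without doxycycline in replicate 3, and DUSP6 and SPRY2 in replicate 2.

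**Figure D4:**
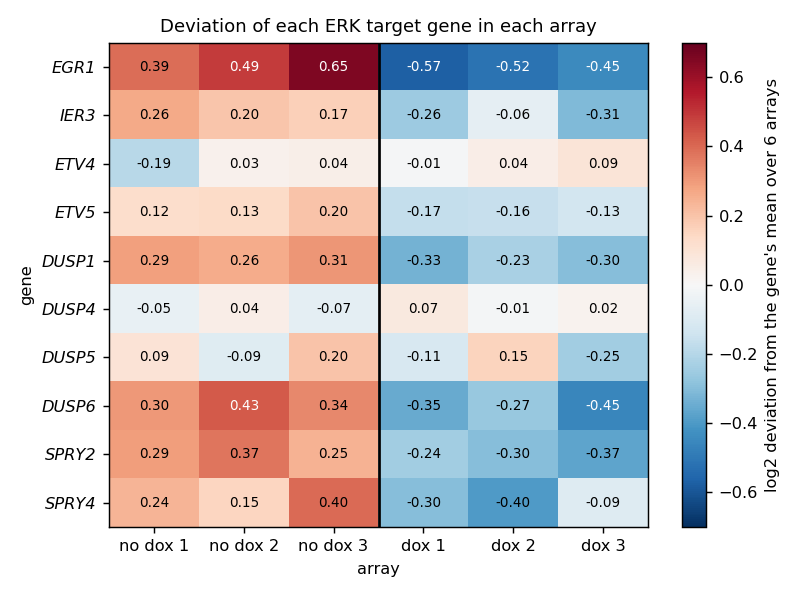
Log2 deviation of each ERK target gene (rows) from its own mean over the 6 arrays, on the 3 arrays without doxycycline (left) and the 3 with it (right). EGR1 ranges from 0.65 to -0.57, and DUSP4 stays within 0.07 of its mean.

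Among genes outside the group and above the median probe set, those nearest in pattern to EGR1 were PLXNA2, a semaphorin co-receptor (distance 0.0783, difference 1.04), ASNS, asparagine synthetase (0.0840, difference 1.00), and PLK2, a polo-like kinase (0.120, difference 0.94). Nearest to DUSP6 were MARS1, the methionyl-tRNA synthetase (0.0606, difference 0.77), LINC00473, a long non-coding RNA (0.0628, difference 0.64), and RGS16, an inhibitor of G protein signalling (0.0697, difference 0.74). The search covered 9100 genes on 6 arrays. Since the groups set most of the distance, genes with a difference of like size come out as near.

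Of 119 other genes of the pathway in 8 lists, 80 were named in the table, and 2 of them rose while 0 fell over all probe sets. Their median difference was 0.04, with 19 on the higher and 5 on the lower side at unadjusted limma p below 0.05. Among all genes 7.57% were higher and 6.87% lower. The lists were chosen with earlier results of these data known. Counts in them are therefore a description and give no separate support. Both called genes were AP-1 subunits in the list of 21 transcription factors and early genes. JUN was at 5.96, 6.33 and 6.41 without doxycycline, against 4.62, 4.25 and 4.40 with it, and rose 3.49-fold (log2 1.81, SE 0.15, limma adjusted p = 0.0140). FOS was at 5.63, 5.88 and 5.70 without doxycycline, against 4.77, 5.02 and 4.90 with it, and rose 1.79-fold (log2 0.84, SE 0.10, limma adjusted p = 0.0381). The second FOS probe set was dim and at -0.11, and with the mean of both FOS was not called. In that list 19 of 21 differences were positive, with a median of 0.17 and unadjusted p below 0.05 for 10 on the higher and 0 on the lower side, while TRIB1 and KLF2 were at -0.17 and -0.08. ETS1, an ETS factor that ERK phosphorylates, was at 0.64 (SE 0.09, limma adjusted p = 0.0516) and is named after its values were seen.

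None of the 6 other MAP kinase phosphatases was called (limma; unadjusted p below 0.05 for 3, each higher), and their median difference was 0.17. DUSP10, which acts on JNK and p38, was at 0.40 (SE 0.07, limma adjusted p = 0.108) and DUSP7, which acts on ERK, at 0.27 (SE 0.07, limma adjusted p = 0.195). DUSP9 and DUSP8 were at -0.10 and -0.02. Of 4 other named feedback inhibitors 0 were called in limma, with 1 higher at an unadjusted p below 0.05: IL17RD, an inhibitor of FGF receptor signalling, at 0.36 (SE 0.09, limma adjusted p = 0.198). ERRFI1 was at 0.04, and SPRY3, another Sprouty, and LRIG1 at -0.17 and -0.13. DUSP4, DUSP6, SPRY2, SPRY4, ETV4 and ETV5 belong to a published score of MAPK activity made of 10 transcripts. Of its 4 other genes 3 were named in the table and 0 called (limma, 0 at an unadjusted p below 0.05). CCND1, cyclin D1, was at 9.49 ± 0.03 without and 9.48 ± 0.04 with doxycycline (SD, n = 3 each), so the difference was 0.01 (95% confidence interval -0.14 to 0.15). EPHA2 was at 0.09.

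Of the 14 named genes of the RAS, RAF, MEK and ERK cascade and its adaptors 0 were called (limma; unadjusted p below 0.05 for 1, which was lower). SHC1, an adaptor between receptors and RAS, was at 9.95, 9.87 and 9.78 without doxycycline, against 10.40, 10.41 and 10.30 with it. All 3 values without doxycycline were lower, by 0.50 on average (SE 0.07, limma adjusted p = 0.0605). NF1, which switches RAS off, was at -0.10, and MAP2K2 and ARAF were at 0.28 and 0.14. Of 12 receptor tyrosine kinases 0 were called, with unadjusted p below 0.05 for 3 on each side. ALK, a driver of neuroblastoma, was at 7.48, 7.62 and 7.64 without doxycycline, against 7.07, 7.09 and 6.97 with it (difference 0.54, SE 0.08, limma adjusted p = 0.0565). ERBB4, a neuregulin receptor, was at 7.31, 7.20 and 7.41 without doxycycline, against 7.92, 7.84 and 7.83 with it (difference -0.56, SE 0.08, limma adjusted p = 0.0554). The groups of both receptors were apart, in opposite directions. RET was at 0.27 and EGFR at -0.29.

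Of 15 genes listed as growth factor ligands 0 were called (limma, unadjusted p below 0.05 for 1 on each side). HGF, the ligand of MET, was at 0.48 (limma adjusted p = 0.121) and FGF8 at 0.19. FGF13, counted here with the FGF genes, and NRG1, a ligand of ERBB receptors, were at -0.19 and -0.14. Of the 15, 4 lay above the median probe set, and FGF8 and FGF13 lay below it. SRF also drives genes of the actin cytoskeleton, through other cofactors than those ERK phosphorylates. Of 5 genes listed as SRF targets through other cofactors 0 were called (limma, unadjusted p below 0.05 for 1, which was higher). CCN2 was at 0.18 and VCL and CNN2 at -0.17 and -0.15. The higher 1 was CCN2, which lay below the median probe set, at 3.47 without and 3.29 with doxycycline. Calls in these lists depended on the threshold's setting. With p adjusted over named probe sets alone, ALK and ETS1 were called higher and ERBB4 and SHC1 lower beside JUN and FOS. When each array in turn was dropped, at most 1 of the 80 was called: JUN, without replicate 1 of the group without doxycycline.

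**Figure D5:**
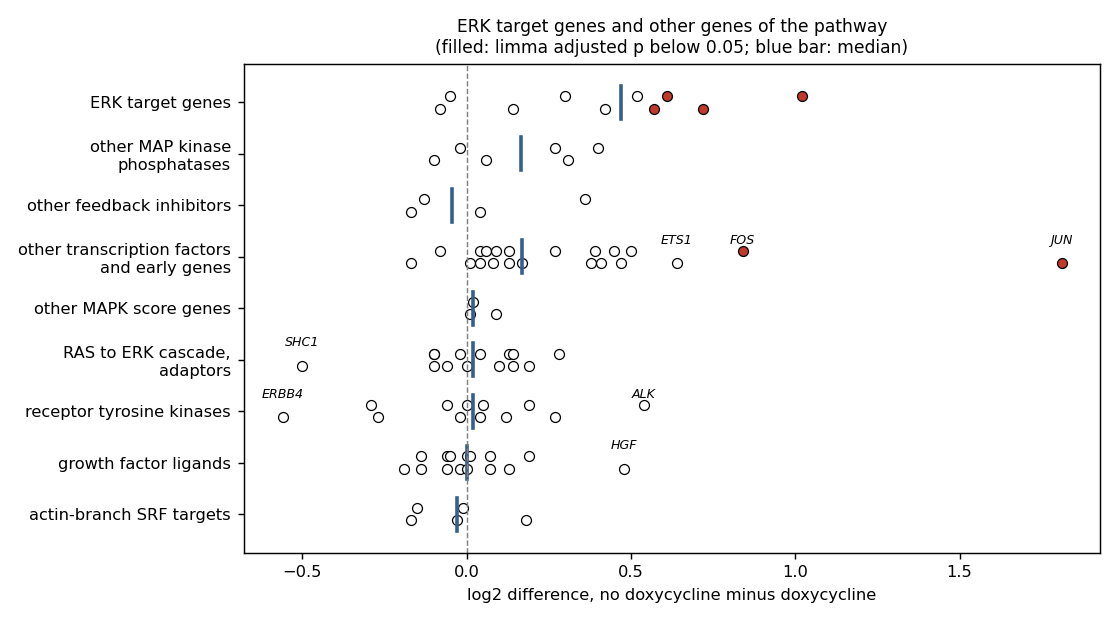
Log2 difference, no doxycycline minus doxycycline (horizontal axis), of the 10 ERK target genes and of 80 other named genes of the pathway in 8 lists, 1 point per gene, with the median of each list as a blue bar. Filled points were called: 4 of the ERK target genes, JUN and FOS.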

How the data were processed

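Total RNA of 6 samples, 3 without and 3 with doxycycline, was hybridised to 1 array each. The deposited table held 1 log2 value per probe set and array, processed by the authors with Partek, per the submitters' processing notes. How background, scaling and probe summaries were handled, and on which genome build, is not given in the sources used here. Log2 follows from the range of values, which run from 2.12 to 14.3, and array medians lay between 3.94 and 3.96. The number of arrays limits the precision. Samples are called independent in the design text, with no culture named, so the p-values measure the spread between these samples.

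GEO's platform annotation named 16098 probe sets, each with 1 symbol. Limma 3.58.1 (lmFit and eBayes, R 4.3.3) was run on all 53617, without covariate or filter, and p-values were adjusted by Benjamini and Hochberg. The procedure was tested on simulated data. The genes named are the 10 members, the genes called in each list, the 2 with the smallest p per direction in each list, and the 3 nearest in pattern to EGR1 and to DUSP6; exceptions are marked. Members and lists were chosen with earlier results of these data known. Of 119 listed pathway genes, 39 had no named probe set and are not analysed here. Promoter sequences are from RefSeq (GRCh38.p14). Alternatives were a replicate block, 2 scalings, a filter on dim probe sets, another moderation, another adjustment, the mean of a gene's probe sets, and leaving out each array. Same-numbered arrays had correlations of their deviations from the group means of -0.012, -0.014 and 0.041. For arrays of different number these ran from -0.031 to 0.044. The main fit therefore used no pairing, but such values cannot tell whether same-numbered samples were handled together.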

Additional observations from a re-analysis of the deposited data

How the results depend on the processing

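The log2 differences of all 10 genes kept their sign under every alternative that gave a value, although ETV4 came to 0.00 after rounding without replicate 1 of the group without doxycycline. DUSP5 has no value without dim probe sets, being 1 of them. Outside leaving out arrays, the differences of EGR1 ran from 0.73 to 1.02, of DUSP6 from 0.70 to 0.72, of SPRY2 from 0.59 to 0.61 and of DUSP1 from 0.55 to 0.57. The count of 4 called genes stayed at 4 under 6 alternatives and was 0 in the fit with the replicate number as a block. That block also gave 0 called probe sets of the 10 genes, against 5, 0 pathway genes, against 2, and 0 probe sets in all, against 183. Leaving out 1 array gave 0 called ERK target genes, 0 of their probe sets, 0 to 1 pathway genes and 0 to 15 probe sets in all. These fits have fewer residual degrees of freedom.

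Leaving out dim probe sets, or adjusting p over named probe sets only, gave 9 called probe sets of the 10 genes, the 4 further ones being the identical IER3 group. With trend and robust moderation 4 probe sets of the 10 genes were called, and none of IER3. The called pathway genes numbered 4 with quantile normalization, 6 with trend and robust moderation, without dim probe sets, or adjusted over named probe sets only, and 1 with the mean of all probe sets of a gene. All probe sets called numbered 311 without dim ones and 385 with trend and robust moderation. The filter and the adjustment change the rows over which p is adjusted, and the filter also changes the fit. With p adjusted over named probe sets only, 175 of those were called. For these and the other settings the cause was not tested. Dim probe sets such as those of DUSP5 have no background value here to be judged against.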
